A study of Mus musculus with 8 samples.

Results

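The insulin-like growth factor family was examined here as the 9 genes Igf1, Igf2, Igf1r, Igfbp2, Igfbp3, Igfbp4, Igfbp5, Igfbp6 and Igfbp7, chosen by family membership and not by a measured value, among 13006 named genes tested. The array carried 14 probes for them, found by the probe table's symbol or its current name through the accession, out of 24341 probes in all. Of the 9 genes 6 had a single probe, Igf1 and Igfbp7 had 3 probes each and Igfbp4 had 2. All 9 genes had a probe above the limit on dim probes, a mean log2 signal of 6.64 over all arrays, and were tested through their brightest probe. Igfbp6 reached that limit through the imiquimod tumours, since its control mean was 6.58.

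Total RNA came from spontaneous mammary tumours of the transgenic line FVB/N-TgN (MMTVneu)-202Mul, hybridised to Illumina bead arrays as biotin-labelled cRNA. In this line the neu oncogene, the rat form of Erbb2, is driven by the mouse mammary tumour virus promoter, which is active mainly in mammary epithelium, and every mouse of both groups carried it. The 4 tumours of one group came from mice given control cream and the 4 of the other from mice given imiquimod cream for 1 cycle, imiquimod being an agonist of the receptor TLR7. The labels give no age. They leave unsaid whether each tumour had its own mouse, so the p-values speak only to the scatter of these 8 samples, part of which may be technical. The question was which transcripts differ after topical treatment. The luminal keratins Krt8 and Krt18, markers of mammary epithelium, were bright, with control means of 11.26 and 11.87 on the log2 scale.

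Insulin-like growth factors 1 and 2 are secreted peptides that drive growth and survival through the receptor tyrosine kinase Igf1r, which signals through insulin receptor substrates to PI3K and Akt. Igfbp2 to Igfbp6 bind the growth factors with high affinity and either keep them from the receptor or carry them to it, while Igfbp7 binds them weakly. Igf1 is made by the liver and, within the mammary gland, mainly by stroma, and it supports duct growth there. Igfbp5 is known for its rise during involution after weaning, when milk-producing cells die.

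No gene of the family passed the test between the groups. Of the 9, none rose and none fell at an adjusted p below 0.05 (limma, Benjamini-Hochberg over 13142 genes and unnamed probes), against 4.33% of all units called (2.13% higher and 2.2% lower), so a count of 0 among 9 genes is near the background. At an adjusted p below 0.1 none passed either, against 9.05% of all units. None reached an unadjusted p below 0.05 in this fit of 1 probe a gene, against 20.5% of all units. In none were the 2 groups free of overlap, against 12.6% of all units. The adjusted p of the 9 genes ran from 0.268 (Igfbp4) to 0.952 (Igfbp5). Imiquimod means were above control means in 7 genes and below them in 2 (Igfbp3 and Igfbp5), where 44.2% of all units had the higher mean with imiquimod, and the median log2 difference was 0.136, beside -0.0213 over all units. Between tumours Igfbp4 and Igfbp7 spread most among the 9 genes, by 1.95 and 1.96 log2 units. How many of all units spread as widely was not counted, and some marker genes given below spread more, such as Acta1 (5.82). Of the 9 genes 6 were at their highest in the same tumour, imiquimod 3, which held the highest value of 13.4% of all units. That tumour was also the highest for several of the cell type lists below.

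Because Igfbp4 and Igfbp7 carried the widest spread, their promoters are shown as the 250 bases before a RefSeq transcript start (build GRCm38.p6), each 5′ to 3′ on the gene's own strand. Capitals mark matches, on either strand, to the TATA box letters TATAAA or the GC box letters GGGCGG. The Igfbp4 sequence lies at chr11:99040994-99041243 (+ strand), inside the span that RefSeq annotates for the gene, and the Igfbp7 sequence at chr5:77408046-77408295 (- strand).
Igfbp4: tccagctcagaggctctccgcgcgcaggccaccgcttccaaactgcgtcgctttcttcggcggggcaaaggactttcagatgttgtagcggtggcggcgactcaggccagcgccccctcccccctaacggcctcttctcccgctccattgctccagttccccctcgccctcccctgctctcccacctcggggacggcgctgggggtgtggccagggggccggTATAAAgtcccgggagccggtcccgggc
Igfbp7: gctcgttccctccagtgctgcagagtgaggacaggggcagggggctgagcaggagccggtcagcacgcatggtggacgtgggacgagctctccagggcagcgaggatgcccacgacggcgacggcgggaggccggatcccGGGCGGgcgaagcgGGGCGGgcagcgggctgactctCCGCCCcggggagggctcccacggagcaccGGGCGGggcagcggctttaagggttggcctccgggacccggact
The Igfbp4 window held 1 TATA box, 28 to 23 bases before the start, and no GC box, and the Igfbp7 window held 4 GC boxes and no TATA box. Among 32851 mouse promoter windows of the same length, 12.4% held the TATA letters and 32.7% the GC box letters. GC content was 69.2% in the Igfbp4 window and 74% in the Igfbp7 window, against a median of 52.4%. Other letters searched in both windows were TTCNNNGAA (STAT factors, 7.02% of all windows), GTAAACA (Foxo factors, 3.17%) and CACGTG (E box, 6.02%), with no match in either. A match is only a match of letters, and its absence says only that the letters are not in this window. Among the other members, GC box letters were found in at least 1 window of Igf1r, Igf2 and Igfbp2. The Igfbp6 window held the TATA letters, and those of Igf1, Igfbp3 and Igfbp5 held neither. A link between these letters and the spread between tumours was not tested.

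Among the ligands, Igf1 was dim and spread widely with imiquimod. Its tested probe, 3130377, read 6.85, 6.84, 7.31 and 6.67 on the log2 scale in controls 1 to 4, and 6.53, 7.32, 7.89 and 7.06 in imiquimod tumours 1 to 4. Imiquimod 1 had the lowest value of all 8 tumours and imiquimod 3 the highest, so the controls lay wholly inside the range of the imiquimod tumours. The mean went from 6.92 ± 0.27 to 7.20 ± 0.56 (SD, n = 4 each), a log2 difference of 0.28 (SE 0.26, adjusted p = 0.598), with a 95% interval from -0.31 to 0.88. That interval takes in folds of imiquimod over control from 0.806 to 1.84. Without imiquimod 3 the difference was 0.05 and without imiquimod 1 it was 0.51. A second probe, 3290280, stood in much the same order, with 6.52, 6.74, 6.73 and 6.63 in controls and 6.52, 6.89, 7.30 and 6.84 with imiquimod, again highest in imiquimod 3. The third, 1990193, had a mean of 6.47 over all arrays, under the limit on dim probes, and was lowest in imiquimod 3 (6.31). Array medians lay near 6.82, so these probes report a signal close to that of a typical probe on the array, and whether any background was subtracted is unknown. If none was, log2 differences of such dim probes understate the change.

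Igf2, the fetal growth factor expressed from the paternal allele, had 6.98, 7.16, 7.03 and 7.24 in the controls. With imiquimod its probe gave 7.01, 7.26, 7.62 and 7.06. Only imiquimod 3 and, by a small margin, imiquimod 2 exceeded the highest control. The log2 difference was 0.14 (SE 0.13, 95% interval -0.17 to 0.44, adjusted p = 0.623).

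The receptor Igf1r varied little. Controls 1 to 4 read 6.74, 6.84, 6.93 and 6.72, and imiquimod tumours 1 to 4 read 6.75, 6.83, 7.002 and 6.97. Imiquimod 3 and 4 were the highest of the 8, but only just above control 3. The difference was 0.08 (SE 0.08, 95% interval -0.11 to 0.27, adjusted p = 0.639). Because this probe also lay close to the array medians, the narrow interval describes the probe's signal and says little of the receptor itself.

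Of the binding proteins, Igfbp4, a secreted inhibitor of growth factor action that the protease Pappa cleaves, had the largest mean difference of the 9 genes. The tested probe, 5420441, gave 7.26, 8.56, 7.61 and 7.32 in controls 1 to 4. It gave 7.75, 8.30, 9.22 and 8.52 in imiquimod tumours 1 to 4. Imiquimod 3 stood above every other tumour, and the other 3 imiquimod tumours lay above controls 1, 3 and 4 but below control 2. Means were 7.69 ± 0.60 and 8.45 ± 0.61 (SD, n = 4 each). The log2 difference of 0.76 (SE 0.35, 95% interval -0.04 to 1.57) did not pass (adjusted p = 0.268). Without control 2 it was 1.05, the highest of 20 alternative settings, and without imiquimod 3 it was 0.51, and neither passed. The second Igfbp4 probe, 2680309, also read highest in imiquimod 3 (8.11) and next in control 2 (7.89). Its log2 difference was 0.38 (SE 0.23) in a fit over all 24341 probes (95% interval -0.14 to 0.90, adjusted p = 0.506). In that fit 2.64% of all probes passed and none of the 14 family probes did. The smallest adjusted p in limma's test there was 0.322, that of the tested Igfbp4 probe, whose 95% interval ran from 0.006 to 1.52. It was also the 1 family probe of 14 with an unadjusted p below 0.05 in that fit, against 15.3% of all probes.

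Igfbp7, also called angiomodulin and known from tumour blood vessels, split the imiquimod tumours. Its tested probe, 4210064, read 10.49, 11.07, 11.42 and 10.86 in controls 1 to 4. It read 10.99 and 10.62 in imiquimod 1 and 2 but 12.44 and 12.40 in imiquimod 3 and 4. The first pair lay within the range of the controls and the second pair about 1 log2 unit above the highest control. The mean was 10.96 ± 0.39 in controls and 11.61 ± 0.95 with imiquimod (SD, n = 4 each). The log2 difference of 0.65 (SE 0.42, 95% interval -0.31 to 1.61) did not pass (adjusted p = 0.44). It was 0.37 without imiquimod 3, 0.39 without imiquimod 4 and 0.98 without imiquimod 2. Without imiquimod 3 and 4 together it was -0.16 (adjusted p = 0.872). Those tumours held the gene's highest values, so leaving them out had to lower the difference. The mean of the gene's probes above the limit gave 0.31, and none of these settings passed. The gene's other probes were dim in every tumour and did not show the split. Probe 5290152 ranged from 6.56 to 6.76 and probe 3060110 from 6.40 to 6.67, with log2 differences of -0.03 on each.

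**Figure D1:**
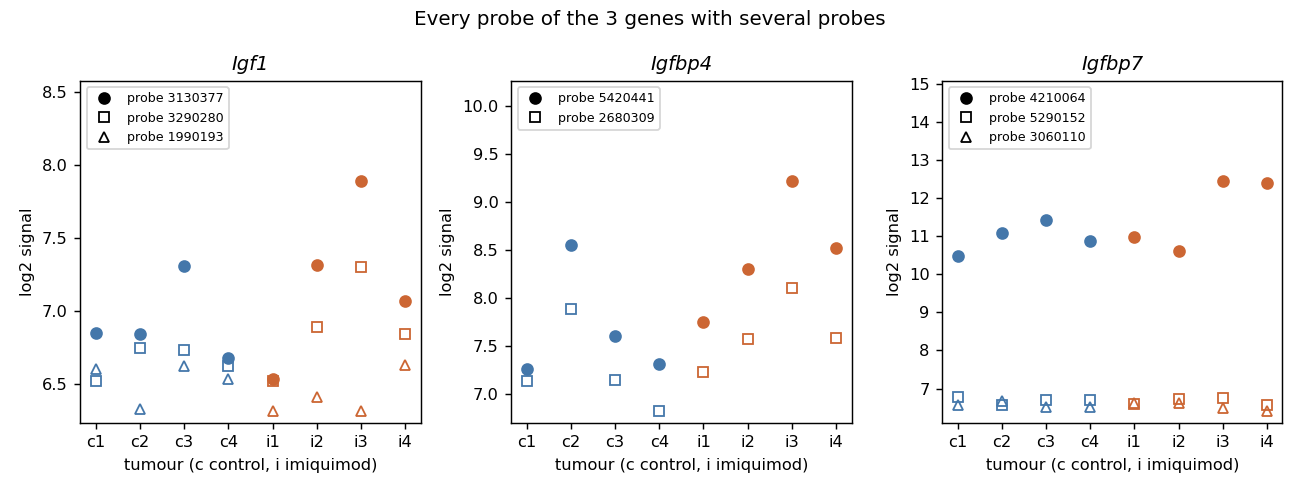
Log2 signal (vertical axis) of every probe of Igf1, Igfbp4 and Igfbp7 in controls 1 to 4 (blue, c1 to c4) and imiquimod tumours 1 to 4 (orange, i1 to i4), the filled circle being the tested probe. Both Igfbp4 probes are highest in imiquimod 3, while the split of imiquimod 3 and 4 from the other tumours appears on the bright Igfbp7 probe and not on its dim ones.

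Igfbp6, which prefers Igf2 over Igf1, read 6.74, 6.49, 6.36 and 6.72 in controls and 6.53, 6.94, 7.18 and 6.86 with imiquimod. Imiquimod 2, 3 and 4 exceeded every control and imiquimod 1 lay among them. The log2 difference was 0.30 (SE 0.14, 95% interval -0.02 to 0.63, adjusted p = 0.282). Igfbp2, a binding protein of fetal tissues and of many tumours, ranged from 6.69 to 6.87 in controls and from 6.85 to 6.95 with imiquimod. The ranges overlapped only through control 2 and imiquimod 1, yet the difference was 0.13 (SE 0.07, adjusted p = 0.318), on a probe whose signal lay at the array medians.

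Igfbp5 and Igfbp3 differed least between the groups. Igfbp5 was bright in all 8 tumours, with 12.46, 13.80, 13.61 and 13.08 in controls and 13.41, 12.84, 12.99 and 13.52 with imiquimod. All 4 imiquimod values fell inside the range of the controls. The log2 difference was -0.05 (SE 0.29, adjusted p = 0.952), and its 95% interval from -0.70 to 0.60 takes in folds from 0.617 to 1.52. Igfbp3, the main carrier of the growth factors in blood, read 7.88, 8.17, 8.47 and 7.12 in controls and 7.94, 7.53, 7.87 and 8.12 with imiquimod. Here too the imiquimod values lay inside the control range, which control 4 extended downwards. The difference was -0.05 (SE 0.26, 95% interval -0.64 to 0.55, adjusted p = 0.949). In both genes the sign turned when single tumours were left out.

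**Figure D2:**
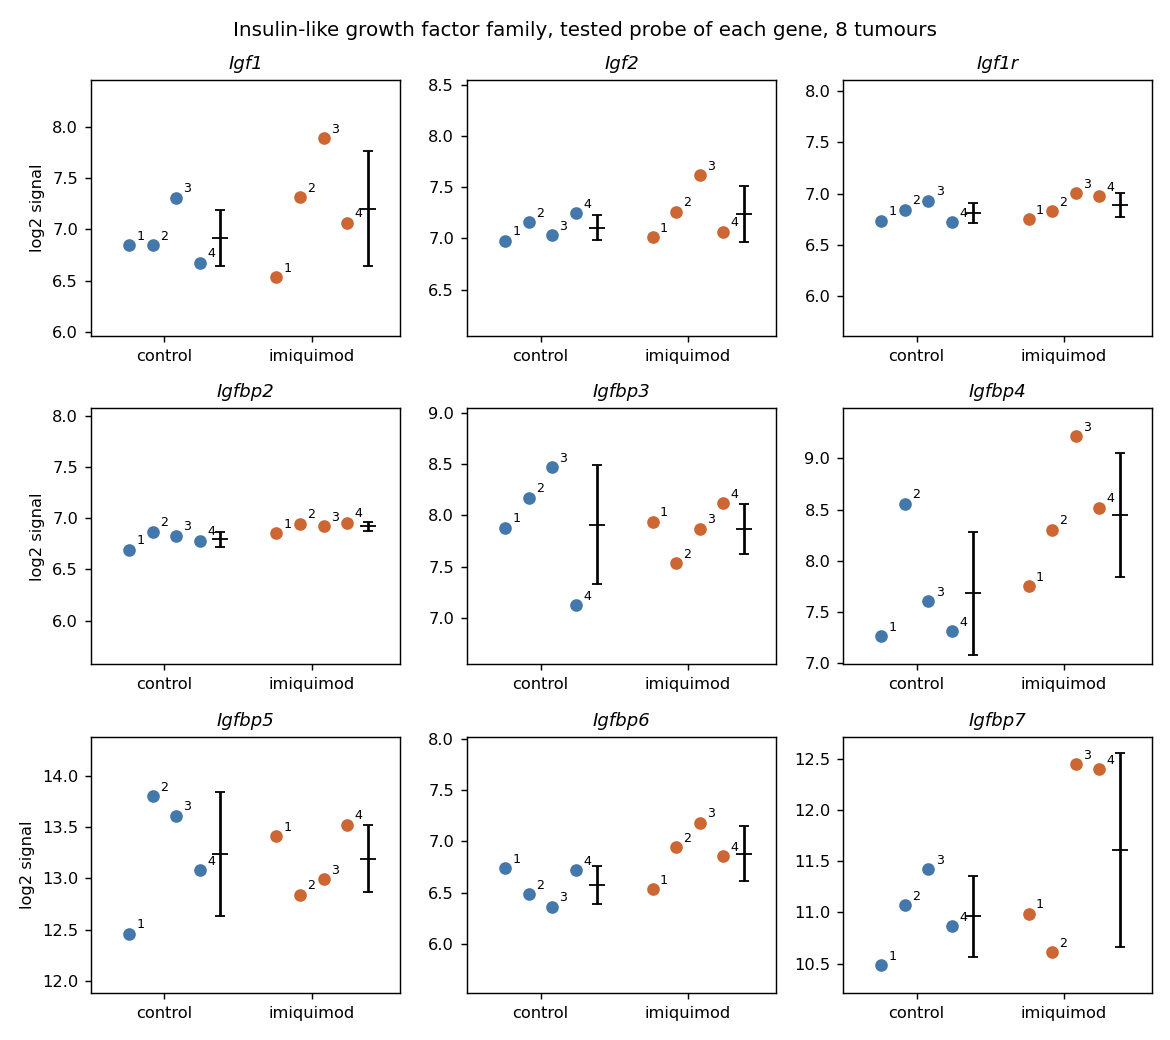
Log2 signal (vertical axis, the same height of 2.5 units in every panel but different positions) of the tested probe of each gene in 4 control (blue) and 4 imiquimod tumours (orange), numbered, with the mean and SD of each group as a bar beside the points. The groups overlap in all 9 genes, and imiquimod 3 is the highest point for Igf1, Igf2, Igf1r, Igfbp4, Igfbp6 and Igfbp7.

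**Figure D3:**
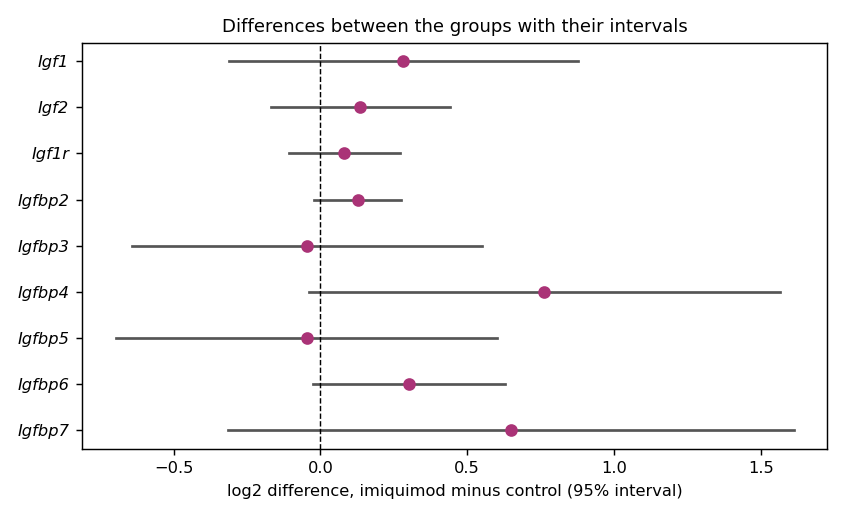
Log2 difference of imiquimod minus control (horizontal axis) for each gene of the family, with its 95% interval from the moderated fit (4 tumours a group). Every interval crosses 0, and those of Igfbp4 and Igfbp7 are the widest, reaching 1.57 and 1.61.

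The width of these intervals differed between genes. Intervals of Igf1r and Igfbp2 ended at 0.27, those of Igf2 and Igfbp6 at 0.44 and 0.63, and those of Igfbp4 and Igfbp7 at 1.57 and 1.61. A 2-fold rise, 1 log2 unit, therefore lay outside the interval for 7 of the genes and inside it for Igfbp4 and Igfbp7. A 2-fold fall lay outside it for all 9. The tested probes of Igf1, Igf2, Igf1r, Igfbp2 and Igfbp6 were dim, however, near the array medians. For these genes the intervals describe the probe's signal, and a 2-fold change of the transcript is not excluded, since log2 differences of dim probes may understate the change. Over the 8 tumours the tested probes of Igf1, Igfbp3, Igfbp4, Igfbp5 and Igfbp7 spanned at least 1 log2 unit, from 1.34 (Igfbp5) to 1.96 (Igfbp7), and the other 4 spanned 0.26 to 0.82.

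Igf1, Igf2, Igf1r, Igfbp4, Igfbp6 and Igfbp7 had their highest value in imiquimod 3, which held the highest value of 13.4% of all units. Igfbp2 was highest in imiquimod 4, Igfbp5 in control 2 and Igfbp3 in control 3. Leaving out imiquimod 3 and 4 together, the difference was 0.0069 for Igf1, 0.03 for Igf2, -0.02 for Igf1r, 0.34 for Igfbp4 and 0.16 for Igfbp6. Since these genes were highest in imiquimod 3, leaving it out had to lower them. The other genes had 0.11 (Igfbp2), -0.17 (Igfbp3) and -0.11 (Igfbp5). With fewer samples fitted 112 units were called in all against 569.

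The same tumours also stood out in markers of other cell types, and in bulk RNA more cells of a type and more RNA per cell cannot be told apart. Levels are given as the log2 signals of a list summed and divided by its number of genes, and no array signal reaches 0. Over 14 fibroblast and matrix genes tested of 16, this level was 6.89 to 7.25 in controls and 6.98, 8.01, 8.62 and 7.94 in imiquimod 1 to 4, highest in imiquimod 3. Among them Dcn, a matrix proteoglycan, was the single gene that rose (log2 difference 2.35, SE 0.55, adjusted p = 0.0483), where 2.13% of all units were called higher. Of the 14 genes 8 had an unadjusted p below 0.05 in limma, against 20.5% of all units. Their median difference was 0.67, beside -0.0213 over all units. Col6a1 and Loxl1, also of the matrix, had 1.13 and 1.48 (adjusted p = 0.162 and 0.175) and read highest in imiquimod 3, at 9.75 and 10.003. The part of these cells in the values of Igf1, Igfbp4 and Igfbp6 was not tested.

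Endothelial markers, 10 tested of 12, stood at 7.20 to 7.64 in controls and at 7.51, 7.47, 7.97 and 8.08 in imiquimod 1 to 4, with imiquimod 3 and 4 above all others as for Igfbp7. None passed, the brightest 3 being Esam (0.32), Emcn (0.37) and Robo4 (0.48), with adjusted p from 0.347 to 0.577. Skeletal muscle markers, 12 tested of 14, were also highest in this pair, at 8.76 and 8.56 in imiquimod 3 and 4 against 6.62 to 7.41 in controls and 6.72 to 6.84 in the other imiquimod tumours. Acta1, skeletal actin, read 12.19 in imiquimod 3 and 10.84 in imiquimod 4 against at most 8.94 elsewhere, while the calcium pump Atp2a1 reached 9.84 and 10.27 there. Myoglobin (Mb) did not follow the pair, with 8.16, 7.60, 8.36 and 7.18 in imiquimod 1 to 4 against 7.002 to 7.23 in controls. The part of either in the Igfbp7 values was not tested.

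Macrophage markers, 12 tested of 14, lay at 7.77 to 8.07 in controls and 8.49 to 9.29 with imiquimod, where 7 of them rose and none fell, against 2.13% of all units called higher and 2.2% lower. The brightest were Lyz2, which did not pass (0.21, adjusted p = 0.843), Cd14 (2.55, adjusted p = 0.00513) and the complement component C1qc (1.59, adjusted p = 0.00951). The list stood at 8.61, 8.49, 9.29 and 8.95 in imiquimod 1 to 4, above every control in all 4 and highest in imiquimod 3 and 4, the tumours in which Igfbp7 was high. Its part in the family's values was not tested. Adipocyte markers, 9 tested of 11, were highest in imiquimod 3 (8.04) and 2 (7.89) against 6.75 to 7.53 in controls, and the brightest 3, Cfd, Car3 and Adipoq, had 1.43, 1.44 and 0.98 without passing (adjusted p = 0.242 to 0.364). Over the 9 adipocyte genes the median difference was 0.18, with a range from -0.74 to 1.44. Pericyte and smooth muscle markers, 7 tested of 10, lay at 7.45 to 7.77 in controls and 7.47 to 8.001 with imiquimod, Acta2, Notch3 and Mcam having 0.90, -0.18 and 0.12. Luminal markers, 12 tested of 14, ranged from 9.24 to 9.40 in controls and from 9.11 to 9.37 with imiquimod, with -0.20, -0.24 and -0.06 for Krt18, Cldn3 and Krt8, none passing.

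Basal and myoepithelial markers, 5 tested of 8, lay at 6.84 to 7.01 in controls and 7.27 to 7.55 with imiquimod. Of these 5 genes Krt14, a basal keratin, was the single one that rose, by 1.39 (SE 0.30, adjusted p = 0.0361), where 2.13% of all units were called higher. Mylk and Trp63 had 0.19 and 0.06. Of 8 epidermal genes 3 were tested (Krt10, Dsg1a and Lce1a1, differences 0.38, -0.07 and 0.10), and their level was highest in imiquimod 1 (7.73), a tumour in which no family gene was at its highest. Milk genes, 7 tested of 8, were highest in imiquimod 2 (13.26) against 10.28 to 10.70 in controls. The brightest 3, Csn3, Mfge8 and Csn2, had differences of -0.10, 1.37 and 2.27, none passing. Csn3 did not follow the list, with 13.90 in imiquimod 2 and its highest value in control 4 (14.07). Igfbp5, known for its rise during involution, read 12.84 in imiquimod 2, below the other imiquimod tumours and below controls 2 to 4. It was lowest of all in control 1 (12.46), where the milk level was 10.28. A link between the milk genes and Igfbp5 was not tested.

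**Figure D4:**
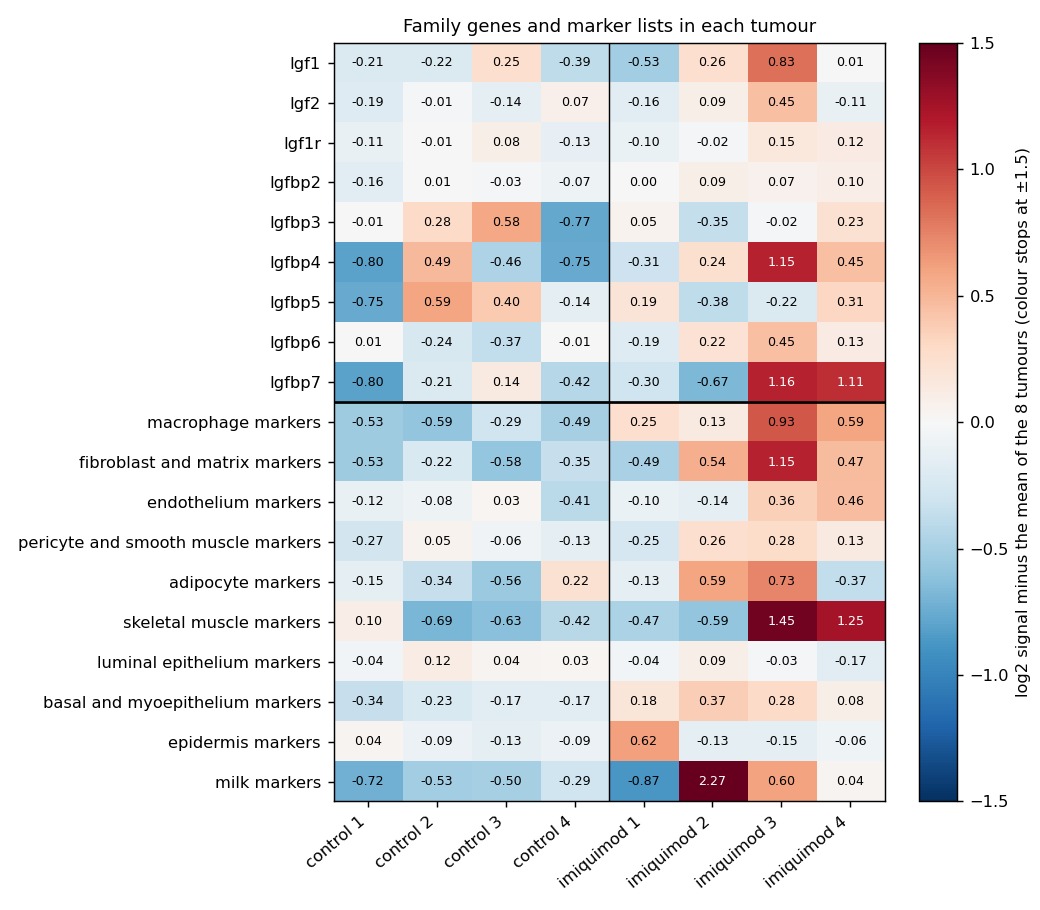
Log2 signal minus the mean of the 8 tumours for each gene of the family (upper block) and for the mean of each marker list (lower block), with 1 column for each tumour and the value printed in each cell. Imiquimod 3 is the highest tumour for 6 family genes and for the macrophage, fibroblast, pericyte, adipocyte and skeletal muscle lists, and is also high for the endothelial and milk lists. Imiquimod 4 is high for Igfbp7 and for the macrophage, fibroblast, endothelial and skeletal muscle lists.

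For the 5 genes that spanned at least 1 log2 unit, the profiles most like theirs were sought over the 8 tumours, by the mean absolute difference between profiles each centred on its own mean. Nearest to Igf1 were Ugt1a6b, Zfc3h1 and Vwf (0.105, 0.105 and 0.117 log2 units). Nearest to Igfbp4 were Adamts2, Cav1 and Zfp207 (0.14, 0.175 and 0.205), and nearest to Igfbp7 were Cd53, Esam and Laptm5 (0.219, 0.264 and 0.265). Igfbp5 was closest to Dll1, Igsf3 and Aplp2 (0.122, 0.167 and 0.169) and Igfbp3 to Pcbp1, Hsp90b1 and Glrx (0.154, 0.172 and 0.174). These are the closest of all named genes tested outside the family, over only 8 values, so some close profiles were bound to turn up. How far a typical gene lay is not given, and joint regulation was not tested.

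The rest of the pathway was read from 8 lists of 70 genes, of which 52 were tested, 15 were too dim and 3 had no probe. None of the 52 passed, against 4.33% of all units, and 14 had an unadjusted p below 0.05, against 20.5% of all units, 11 of them higher with imiquimod and 3 lower. The groups did not overlap in 5 of the 52 (Ide, Pik3r1, Foxo1, Bcl6 and Jak2), against 12.6% of all units. The median log2 difference was -0.000458 over the 52 genes.

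Among 8 receptors and carriers 3 were tested, the insulin receptor Insr being too dim. Igf2r, the receptor that clears Igf2 from the cell surface, read 8.89, 9.47, 9.51 and 9.002 in controls and 8.19, 8.89, 8.51 and 8.39 with imiquimod. Imiquimod 2 alone reached up to the lowest control. The log2 difference of -0.72 (SE 0.19, 95% interval -1.15 to -0.30) did not pass (adjusted p = 0.066) and kept its sign in 20 alternatives, with adjusted p from 0.0223 to 0.359. The single one that passed took the replicate number as a block (0.0223). Igfals, which holds growth factor and Igfbp3 in one complex in blood, was bright, from 10.17 to 11.05 in controls and from 9.94 to 10.59 with imiquimod (-0.37, SE 0.21, adjusted p = 0.378).

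None of 7 binding protein proteases and their regulators passed, and their median difference was -0.03. The smallest p was that of Ide (-0.27, SE 0.09, adjusted p = 0.118), kept in this list although it is known as an enzyme that degrades insulin. Pappa, which cleaves Igfbp4, had 0.06 (adjusted p = 0.691) on a probe near the array medians. None of 6 adaptors tested of 10 passed (median -0.05), Grb2, which links receptors to Ras, having 0.32 (adjusted p = 0.252). No insulin receptor substrate was among those tested, Irs1 and Irs4 being too dim and Irs2 having no probe. None of 16 PI3K, Akt and mTOR genes tested of 21 passed (median 0.0015). Pik3ca and Akt1 were too dim to be tested, so the data say nothing of them. Their smallest p belonged to Pik3r1, the regulatory subunit of PI3K, with 0.53 (SE 0.15, adjusted p = 0.0906), at 7.09 to 7.56 in controls and 7.57 to 8.07 with imiquimod.

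Of 9 Foxo factors and targets 7 were tested and none passed (median -0.04). Bcl6, a transcriptional repressor that Foxo factors induce, read 8.20 to 8.59 in controls and 9.20, 8.66, 10.16 and 9.65 in imiquimod 1 to 4. Its difference of 1.05 (SE 0.28, adjusted p = 0.0715) ranged from 0.56 to 1.30 over 20 alternatives and passed in 1 of them, without imiquimod 2 (adjusted p = 0.0242). It was 0.56 without imiquimod 3 and 4 together (adjusted p = 0.287). Of the growth hormone axis all 6 genes were tested and none passed (median 0.13). Jak2, the kinase of the growth hormone receptor and of interferon gamma signalling, stood at 7.58 to 8.03 in controls and 8.14 to 8.24 with imiquimod. Its log2 difference of 0.39 (SE 0.10) did not pass (adjusted p = 0.0571). It passed in 2 of 20 alternatives, with array weights (0.0357) and without control 2 (0.028). The mean of its kept probes lowered the difference to 0.22 (adjusted p = 0.0869), and with the replicate block the adjusted p was 0.111.

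Among the Igf2 RNA regulators Igf2bp1, Igf2bp2 and Igf2bp3 were tested and none passed (median 0.11). Igf2bp2, which binds the Igf2 messenger, read 6.58 to 6.91 in controls and 6.70, 7.64, 7.63 and 7.30 in imiquimod 1 to 4 (0.57, SE 0.20, adjusted p = 0.139). It passed in 1 of 20 alternatives, without imiquimod 1 (adjusted p = 0.0107), and ranged from 0.42 to 0.78 over them. The CCN proteins, matricellular proteins once named as relatives of the binding proteins, had a median of 0.37 over 4 tested of 5, none passing. Ccn5 read 6.40 to 6.66 in controls and 6.44, 7.05, 8.16 and 7.30 in imiquimod 1 to 4 (0.71, SE 0.30, adjusted p = 0.222), again highest in imiquimod 3. Its control mean of 6.52 lay under the limit on dim probes, so the probe was kept through the imiquimod tumours. The difference was 0.41 without imiquimod 3 and 0.22 without imiquimod 3 and 4 together (adjusted p = 0.334 and 0.697), and 0.98 without imiquimod 1, the 1 alternative of 20 below the threshold (adjusted p = 0.048).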

How the data were processed

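Expression was taken from the series table, 1 column for each of 8 samples, with groups from the labels alone. Its deposited values are log2 signals whose quantiles nearly match across arrays, which quantile normalization would give. All control arrays topped out at 14.86 and all imiquimod arrays at 15.07, so a step done separately in each group cannot be told apart from treatment. Of tools, the submitters' processing notes give the package affy, and background correction is not given in the sources used here. From the non-normalized table the probe accessions and symbols were used, and its 16 columns of values, whose running numbers match no label, were not. Probes were named through a RefSeq gene table (GRCm38.p6), 20038 of 24341 by accession, 1620 by symbol and 1736 by synonym.

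The dimmest 33.3% of probes by mean were left out, each gene was taken by its brightest kept probe, and limma 3.58.1 in R 4.3.3 (lmFit, eBayes, two-sided, no covariates) was fitted to 13142 units. A second fit took every probe. Intervals are 95% from the moderated fit. The procedure was tested on simulated data, where the check asked only that large shifts be recovered and false calls be few. How often it would find differences as small as those of the family is not given here. The number of arrays limits the precision. No 2 arrays held identical values.

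Members, lists and alternatives were chosen with earlier results of these data known. Named are all 9 members, every pathway gene past the threshold or else the one of each list with the smallest p, the 3 brightest markers of each cell type list and the 3 nearest profiles of each member spanning at least 1 log2 unit. Dcn and Krt14 follow from that rule. Insr, Igfals, Pappa, Foxo1, Igf2bp1 and Igf2bp3 were named after their values were seen. Irs1, Irs2, Irs4, Pik3ca and Akt1 were named because they were not tested. Alternatives covered normalization, background, filter, probe choice, variance model, array weights, replicate block, threshold and tumours left out.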

Additional observations from a re-analysis of the deposited data

How the results depend on the processing

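No family gene passed in any of 21 alternatives, among them a threshold of 0.1, and 170 of 179 recomputed differences kept their sign. The threshold of 0.1 was set on the main fit only. In the other settings the adjusted p of limma fell below it for Igfbp6 without imiquimod 1 (difference 0.42, adjusted p = 0.089). It also did so for Igfbp4 without control 2 (1.05, adjusted p = 0.0961). Left out in turn, single tumours moved Igfbp3 between -0.31 and 0.14 and Igfbp5 between -0.31 and 0.14. Without imiquimod 3 and 4 together Igf1r had -0.017 and Igfbp7 -0.16. Igfbp6 has no value with the dimmer 50% of probes left out, since its probe falls out there. The count of all called units, 569, was 278 to 911 with single tumours left out (308, 379 and 296 without control 1, 3 and 4, and 911, 299, 278 and 314 without imiquimod 1 to 4), 112 without imiquimod 3 and 4 together and 1189 at a threshold of 0.1. Fewer samples were fitted in all but the last. Pathway counts of 0 became 1 for the growth hormone axis with array weights, for receptors and carriers with the block, and for these, PI3K genes and Foxo genes at 0.1. With single tumours left out they were 0 to 1 for the growth hormone axis, proteases, Igf2 RNA regulators, CCN proteins and Foxo genes. The cause was not tested. Replicate numbers are shared between the groups, but same-numbered tumours did not deviate together (r from -0.021 to 0.035), and no number's tumours correlated best with each other. With the replicate number as a block 501 units passed and no family gene did. Several family probes lay near the array medians, where signal over background limits what can be seen.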
